A study of Mus musculus with 10 samples.

Results

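Group 2 innate lymphoid cells (ILC2s) are lymphocytes that lack antigen receptors and make type 2 cytokines. Of the 50039 open chromatin regions measured by ATAC-seq in ILC2s of 5 mouse tissues, 2118 (4.23%) were closed only in bone marrow (BM) ILC2s. These regions were chosen by their counts. Each library was divided by its size factor (the median ratio of its counts to the mean library), log2(count + 1) was taken, and a region was kept when the lowest of the 8 libraries of lung, pancreas, small intestine (SI), and large intestine (LI) lay at least 0.5 above the higher of the 2 BM libraries. That distance is called the gap below, and the divided counts are called normalised counts. Every difference between BM and the other tissues at these regions is therefore a description and carries no test. With BM 1 left out 3360 regions met the rule, and with BM 2 left out 3604.

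The study compared ILC2s across tissues to ask which chromatin regions carry their tissue identity. Each tissue had 2 libraries of 50000 ILC2s from wild-type C57BL/6 male mice, 6 weeks old and untreated. Cells of 16 mice were pooled for each BM, lung, and pancreas library, and cells of 10 mice for each LI and SI library. The lineage (Lin) antibodies of the sort were against CD3, B220, CD11b, FcεRI, and CD11c. BM ILC2s were sorted as Lin–ST2+CD25+ cells on 1 sorter, and the others on another: LI, lung, and pancreas ILC2s as Lin–CD45+CD127+ST2+CD25+ cells, and SI ILC2s as Lin–CD127+CD45+KLRG1+ cells of intermediate or low Thy1. Isolation differed as well: BM cells were flushed out of bone, whereas cells of every other tissue were freed by enzymes and taken from a density gradient. Tissue, gate, sorter, and isolation cannot be told apart where BM is set against the rest. Because bulk libraries average over cells, a lower count can mean fewer cells with an open region or a less open region in each cell, and these cannot be told apart.

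In ATAC-seq the Tn5 transposase inserts sequencing adapters where DNA is accessible, so read counts rise with accessibility. Bone marrow holds the progenitors of ILC2s as well as mature ILC2s, whereas ILC2s of barrier tissues and organs are mostly resident cells that receive alarmins such as IL-33 and IL-25 from their surroundings. AP-1 factors (Fos, Jun, Batf, and relatives), NR4A orphan nuclear receptors, and NF-kappaB are switched on when lymphocytes are stimulated, and AP-1 is widely tied to the opening of enhancers. GATA factors, chiefly Gata3, set the ILC2 lineage, and Runx and Ets factors act throughout lymphoid cells.

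Total counts per library lay between 10282987 and 32797872. In no tissue were the replicate libraries within counting noise of each other (chi-square per degree of freedom between 12.8 and 56.0), so none was treated as a repeat of the same library. Of 8 ILC2 genes, Gata3, Rora, Id2, Il7r, and Il2ra had promoter regions with 219 or more normalised counts in every library. Those of Il1rl1 held 56.6 and 59.0 in SI and 110.2 to 544 elsewhere, those of Klrg1 held 150.4 and 176 in BM and 447 to 1079 elsewhere, and Thy1 had none. Promoter regions of 27 of the 33 listed marker genes of T, B, myeloid, mast, NK, ILC3, erythroid, and epithelial cells were not among the regions, Mpo, Cpa3, Ncr1, and Gata1 included. The Hba-a1 promoter, an erythroid marker, held 268 and 129 normalised counts in BM and 36.1 to 82.1 elsewhere, and the part of such cells in the BM counts was not tested. The summed T cell promoters Cd3e and Cd3g held 97.0 and 95.8 in BM and 91.5 to 201 elsewhere. SI 1 had the highest count at the promoters of the B cell gene Ebf1 (312, against 43.7 to 141 in the other libraries, SI 2 included) and the myeloid gene Spi1 (185, against 7.65 to 77.6), and that of the epithelial gene Cdh1 held 57.3 to 185 in all. The part of such cells in the SI counts was not tested.

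The sequences that follow show what these regions hold. All are the plus strand of GRCm38, read around the centre of the region, with every match to 4 motifs in capitals: AP-1 (TGANTCA), the NR4A element (AAAGGTCA), RUNX (TGTGGTT), and NF-kappaB (GGANTTTCC), on either strand. Each is named by the closest transcription start site (TSS), whose gene need not be the one a region acts on. The first 4 lines are among the 12 regions with the largest gap. Ostf1 leads them and holds none of the 4 motifs in this window, while Agfg1, Uhrf2, and the region inside Pvt1, whose nearest TSS is that of Macroh2a3, each hold an AP-1 match.
Ostf1, chr19:18599735-18599934: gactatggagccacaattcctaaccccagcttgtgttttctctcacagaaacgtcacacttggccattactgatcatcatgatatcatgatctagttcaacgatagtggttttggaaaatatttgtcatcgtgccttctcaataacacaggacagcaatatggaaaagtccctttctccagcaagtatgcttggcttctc
Agfg1, chr1:82831830-82832129: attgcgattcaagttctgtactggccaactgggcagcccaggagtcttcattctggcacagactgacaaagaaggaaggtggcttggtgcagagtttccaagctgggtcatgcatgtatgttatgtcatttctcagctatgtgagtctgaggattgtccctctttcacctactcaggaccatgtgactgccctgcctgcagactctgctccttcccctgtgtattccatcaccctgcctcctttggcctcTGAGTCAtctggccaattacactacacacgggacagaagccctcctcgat
Uhrf2, chr19:30043811-30044010: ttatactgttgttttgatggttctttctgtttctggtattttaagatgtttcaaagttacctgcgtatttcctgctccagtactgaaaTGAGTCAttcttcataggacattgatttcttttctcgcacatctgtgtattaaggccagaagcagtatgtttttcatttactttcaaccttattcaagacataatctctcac
Macroh2a3, chr15:62245405-62245604: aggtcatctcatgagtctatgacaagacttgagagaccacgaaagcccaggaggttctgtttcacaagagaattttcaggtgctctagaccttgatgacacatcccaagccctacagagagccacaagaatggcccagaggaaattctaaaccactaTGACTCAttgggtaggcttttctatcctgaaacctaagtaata
The next 4 lines lie near genes of activated lymphocytes and are shown for their AP-1 matches, of which the Egr2 region holds 2 and the Nr4a3 and Trib1 regions stand beside a RUNX match.
Nr4a3, chr4:48012237-48012536: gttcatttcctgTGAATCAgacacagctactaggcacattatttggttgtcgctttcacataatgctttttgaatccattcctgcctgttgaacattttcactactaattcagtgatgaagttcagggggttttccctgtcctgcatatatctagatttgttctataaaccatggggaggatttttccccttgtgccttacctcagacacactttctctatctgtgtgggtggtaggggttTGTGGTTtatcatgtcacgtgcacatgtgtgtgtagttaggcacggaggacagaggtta
Egr2, chr10:67493634-67493833: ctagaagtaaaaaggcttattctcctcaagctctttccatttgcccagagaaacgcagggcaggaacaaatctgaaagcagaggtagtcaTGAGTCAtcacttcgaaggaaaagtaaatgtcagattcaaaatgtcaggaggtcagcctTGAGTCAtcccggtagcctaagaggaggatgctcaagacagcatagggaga
Il10, chr1:130993767-130993966: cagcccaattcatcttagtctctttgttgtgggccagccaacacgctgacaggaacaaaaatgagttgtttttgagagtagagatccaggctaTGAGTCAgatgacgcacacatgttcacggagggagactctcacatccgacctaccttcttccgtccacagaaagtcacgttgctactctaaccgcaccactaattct
Trib1, chr15:59596704-59596903: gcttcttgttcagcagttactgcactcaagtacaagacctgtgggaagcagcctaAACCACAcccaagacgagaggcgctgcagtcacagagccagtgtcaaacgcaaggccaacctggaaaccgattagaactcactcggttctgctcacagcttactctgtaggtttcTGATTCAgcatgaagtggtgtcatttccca
The following 3 lines hold the NR4A element, the motif with the highest share relative to all regions.
Lrrc6, chr15:66445361-66445560: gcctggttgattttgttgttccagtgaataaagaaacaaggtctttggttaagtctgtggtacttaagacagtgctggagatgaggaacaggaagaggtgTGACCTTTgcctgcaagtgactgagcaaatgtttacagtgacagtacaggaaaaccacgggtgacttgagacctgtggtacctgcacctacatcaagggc
Cd200r1, chr16:44774311-44774510: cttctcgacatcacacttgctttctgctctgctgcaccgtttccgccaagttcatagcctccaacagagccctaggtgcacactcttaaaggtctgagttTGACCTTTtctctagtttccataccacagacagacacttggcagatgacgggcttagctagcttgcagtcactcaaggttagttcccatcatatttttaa
Stat4, chr1:51997133-51997332: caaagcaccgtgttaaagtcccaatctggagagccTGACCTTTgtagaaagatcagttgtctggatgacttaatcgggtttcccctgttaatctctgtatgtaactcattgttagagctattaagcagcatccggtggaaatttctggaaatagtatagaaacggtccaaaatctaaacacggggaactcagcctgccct
The last line is the promoter of Klrg1, 1 of the few promoters among these regions.
Klrg1, chr6:122282726-122283025: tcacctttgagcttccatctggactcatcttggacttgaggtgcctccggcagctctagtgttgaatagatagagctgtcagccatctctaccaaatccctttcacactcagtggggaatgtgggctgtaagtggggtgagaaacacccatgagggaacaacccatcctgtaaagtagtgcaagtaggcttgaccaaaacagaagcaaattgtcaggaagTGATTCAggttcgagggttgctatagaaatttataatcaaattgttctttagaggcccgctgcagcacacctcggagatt

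The label "closed" was checked against the counts, and for most of the 2118 regions it means less open rather than shut. The median region held 38.8 and 40.9 normalised counts in BM 1 and BM 2. The pairs were 171 and 188 (LI), 135 and 148 (lung), 143 and 156 (pancreas), and 138 and 149.6 (SI). Over all 50039 regions the library medians were 128 to 153, so these regions stood well below a typical region in BM and close to one in the other tissues. In 961 of them (45.4%) the BM mean was at or below 35.9, the 10th percentile of all regions in BM. In 247 (11.7%) it was at or above the BM median of all regions, and no region had a BM library at 0. The log2 difference between the means of the 8 libraries and of BM ranged from 0.74 to 4.72 with a median of 1.81, against -0.02 over all regions. The median absolute difference between BM 1 and BM 2 was 0.30 on the log2 scale, and the gap exceeded this difference in 1881 of the 2118 regions. As the rule kept only gaps of at least 0.5, that count is largely fixed by the rule and carries no test.

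**Figure D1:**
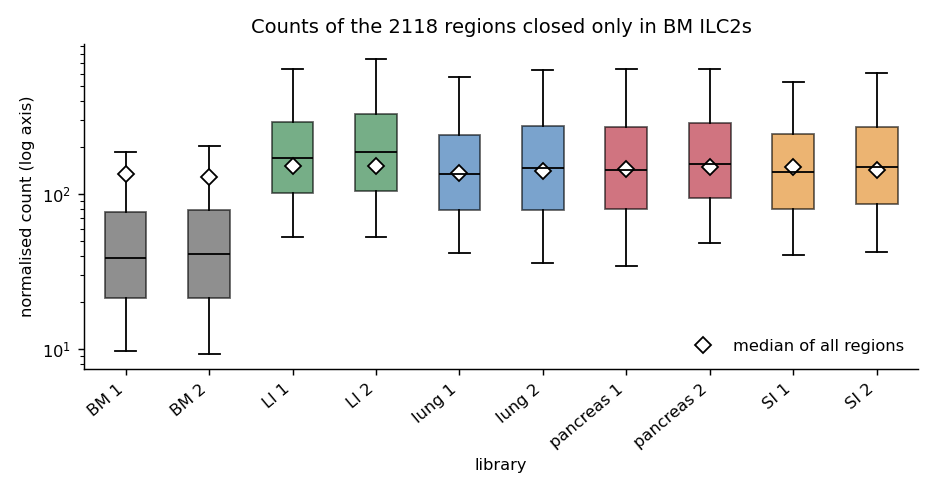
Normalised counts (log axis) of the 2118 regions in each of the 10 libraries; boxes span the quartiles, lines mark medians, whiskers reach the 5th and 95th percentiles, and diamonds give the median of all regions. The BM medians are 38.8 and 40.9, and the other 8 lie between 135 and 188.

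The region with the largest gap (3.55) lay in intron 2 of Ostf1, which encodes an adaptor with SH3 and ankyrin domains first described in osteoclasts (chr19:18599571-18600098, 31.98 kb from the TSS). Its normalised counts were 11.6 and 14.9 (BM), 292 and 399 (LI), 243 and 349.8 (lung), 185 and 237 (pancreas), and 276 and 450.4 (SI). The lowest library outside BM was pancreas 1, and both BM libraries stood far below it. Next came a pair of neighbouring regions upstream of Agfg1, a gene for a protein related to nucleoporins (chr1:82831660-82832299 and chr1:82832440-82832960). The first held 24.3 and 29.8 (BM), 344 and 269 (LI), 229 and 319.7 (lung), 361 and 496 (pancreas), and 275 and 227 (SI). The second held 16.5 and 19.5 (BM), 239 and 239 (LI), 207 and 246 (lung), 233 and 267 (pancreas), and 185 and 149 (SI), so the pair stood apart to the same degree.

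A pair of intergenic regions about 100 kb from Slc17a6, a vesicular glutamate transporter, combined a large gap with a clear difference among the other tissues. The one at chr7:51723909-51724430 held 16.5 and 27.0 (BM), 654 and 687 (LI), 707 and 666 (lung), 818 and 712 (pancreas), and 174 and 328 (SI). The SI libraries were lower than LI, lung, and pancreas there (log2 fold change -1.47 ± 0.23 (SE), adjusted p = 3.1e-04, edgeR's quasi-likelihood test against the mean of the other 3 tissues) and still far above BM. Its neighbour at chr7:51724889-51725393 held 8.73 and 7.44 (BM), 234 and 215 (LI), 211 and 219 (lung), 360.1 and 267 (pancreas), and 55.7 and 103 (SI), again with SI between BM and the rest. Near Lrrn2, which encodes a leucine-rich repeat membrane protein, the region at chr1:132865212-132865807 was the most open of the 12. It held 25.2 and 48.4 (BM), 951 and 1098 (LI), 1078 and 1403 (lung), 912 and 905 (pancreas), and 296 and 547 (SI), with SI lower than the other 3 (log2 fold change -1.30 ± 0.24 (SE), adjusted p = 9.8e-04).

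Others of the 12 lay at genes of signalling and chromatin. In intron 2 of Uhrf2, a ubiquitin ligase that binds modified cytosine, chr19:30043639-30044181 held 6.79 and 9.30 (BM), 129 and 147 (LI), 100.4 and 151 (lung), 111 and 67.2 (pancreas), and 244 and 174 (SI). In intron 2 of Prkca, encoding protein kinase C alpha, chr11:108272608-108273247 held 28.1 and 35.3 (BM), 463 and 368 (LI), 220.3 and 259.6 (lung), 439 and 443 (pancreas), and 312 and 506 (SI). The BM libraries did not overlap any other library at these regions, which the rule fixes. In intron 8 of the long noncoding gene Pvt1, the neighbour of Myc, chr15:62245229-62245780 held 40.8 and 35.3 (BM), 520.5 and 572 (LI), 258 and 252 (lung), 321 and 340.2 (pancreas), and 495 and 459 (SI). In intron 7 of Lrrc6, a gene of dynein arm assembly, chr15:66445199-66445722 held 22.3 and 33.5 (BM), 393 and 439 (LI), 246 and 223 (lung), 292 and 321 (pancreas), and 209 and 306 (SI). Another of the 12, near Gm14010, is described with its locus below.

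**Figure D2:**
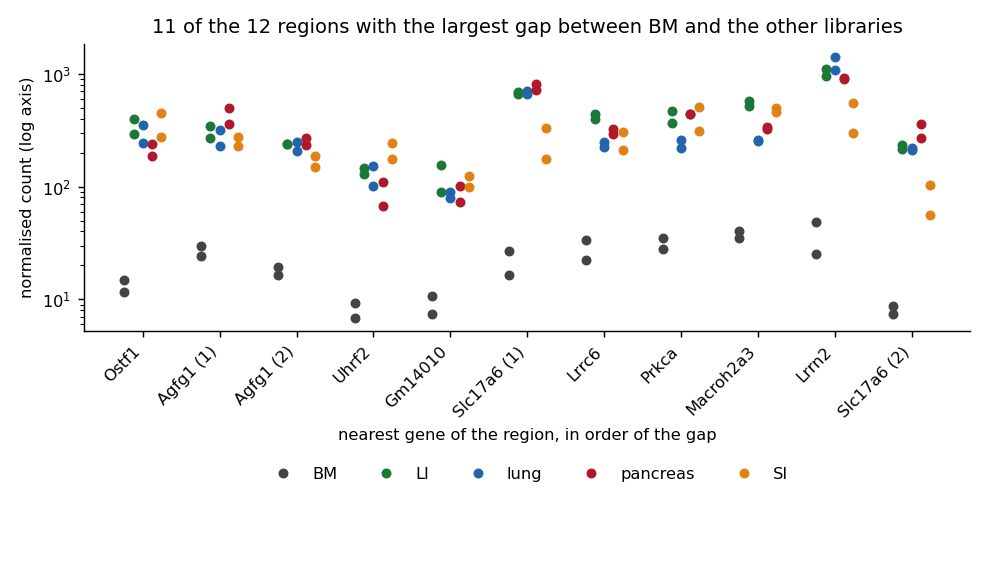
Normalised counts (log axis) of each library at 11 of the 12 regions with the largest gap, named by nearest gene, where Agfg1 and Slc17a6 have a pair each. Both BM points lie below 50 at all 11, and every other point lies above both BM points of its region.

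The regions with the most reads were lower in BM but not closed. At chr16:91533378-91534100, 13.3 kb from the TSS of Ifngr2, a subunit of the interferon gamma receptor, the counts were 297 and 311 (BM), 1577 and 1993 (LI), 2424 and 1958 (lung), 1703 and 1787 (pancreas), and 1337 and 1706 (SI). In intron 1 of Plcl2 (chr17:50570678-50571292) they were 212 and 215 (BM), 1169.8 and 1355 (LI), 1239.6 and 1365 (lung), 1811 and 1867 (pancreas), and 783 and 1473 (SI). Near Sqstm1, which encodes the autophagy adaptor p62, chr11:50213082-50213631 held 781 and 850.2 (BM), 1373 and 1564 (LI), 1283 and 1514 (lung), 1660.4 and 1481 (pancreas), and 1622 and 2041 (SI), a BM level above that of most regions. At the edge of the rule, the 3 regions just inside lay near Dleu2, Cfd, and Rasa1 and the 3 just outside near Il1f10, Akap13, and Cnbd2, all with a gap of 0.50. The Rasa1 region held 114 and 162 (BM), 327 and 433 (LI), 387 and 431 (lung), 317 and 311 (pancreas), and 229 and 257 (SI), and the Cnbd2 region just outside held 124 and 128 (BM), 222 and 271 (LI), 182 and 187 (lung), 209 and 216 (pancreas), and 273 and 392 (SI). The lowest of the 6 in BM was the Il1f10 region, just outside, with 3.88 and 9.30 in BM and 13.6 to 132 elsewhere.

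Promoters were rare among the 2118 regions. Of these, 79 (3.73%, 95% Wilson interval 3.003 to 4.62) lay within 1000 bp upstream to 100 bp downstream of a RefSeq TSS, compared with 19.02% of all regions. Intragenic regions made up 63.0% against 49.9% and intergenic ones 33.2% against 31.1%, and 59.6% had their centre in an intron against 43.1%. A low promoter share was shared by regions set apart in other tissues: it was 4.41% (3.33 to 5.82) of the 1065 regions closed only in SI by the same rule, 6.18% (4.43 to 8.55) of the 534 closed only in lung, and 7.47% (6.10 to 9.11) of the 1178 most open in BM by the mirrored rule. By the same rule 118 regions were closed only in pancreas and 21 only in LI. The share of intragenic regions was 54.4% (51.4 to 57.3) for those closed only in SI and 63.0% (60.95 to 65.1) for the BM regions. These intervals treat regions as independent draws, although many lie close together, and the difference was not tested. The median GC content outside promoters was 45.9% against 48.2% for all such regions, and the median width 531 against 526 bp. Of the 50039 regions, promoters as a class had a median log2 difference of -0.27, toward BM, and with a trend in GC content removed from each library the promoter share of the regions was 5.16%.

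Promoters of the genes next to these regions seldom met the rule, though more often than promoters in general. Of the genes with a region outside promoters, 744 also had a promoter region, 816 in all, and 21 of those promoters (2.57%) met the rule themselves, compared with 0.830% of all promoter regions. Their median normalised count was 591 in BM and 566 in the other tissues, a log2 difference with a median of -0.15, against -0.27 for all promoters. At Ostf1, where 7 of 8 regions met the rule, the promoter held 618 and 620.4 in BM and 565 to 989 elsewhere. At Nek7, encoding a kinase needed by the NLRP3 inflammasome, 10 of 20 regions met the rule and the promoter held 1479 and 1518 in BM and 1044 to 1652 elsewhere. At Trib2 the promoter held 1883 and 2335 in BM and 1336 to 2054 elsewhere. The BM counts at these 3 promoters overlapped or exceeded those of other tissues. At other genes rich in such regions the promoter was lower in BM than in every other library: it held 29.1 and 26.04 in BM and 40.4 to 115 elsewhere at Gm14010, and 233 and 269.7 in BM and 494 to 646 elsewhere at 2510009E07Rik, where it met the rule.

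The regions came in neighbourhoods. Of the 2118, 1048 (49.5%) had another within 50 kb, compared with 17.4% of the other 47921 regions, and 334 (15.8%) sat in 61 runs of 4 or more with steps of at most 50 kb. They were spread over 1417 genes by nearest TSS, of which 1039 had a single region and 42 had 5 or more. The 20 chromosomes other than Y each held 20 to 190.

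Around the long noncoding RNA gene Morrbid, 12 of the 24 regions whose nearest TSS was that of Gm14010 were closed only in BM. They were spread over 119 kb of chromosome 2. Morrbid is known for repressing its neighbour Bcl2l11, which encodes the death protein Bim, in short-lived myeloid cells, and Bcl2l11 itself had 4 of 12 regions. In intron 1 of Morrbid, chr2:128380552-128381067 held 10.7 and 7.44 (BM), 154 and 89.3 (LI), 79.2 and 90.2 (lung), 72.5 and 100.8 (pancreas), and 125 and 99.0 (SI). All 12 of the other regions of Gm14010 were also lower in BM on average, with a median log2 difference of 1.22. The locus was named for its many regions closed only in BM, so this is a description and carries no test. Another intronic region, at chr2:128377626-128378256, held 11.6 and 7.44 (BM), 120.4 and 137 (LI), 118 and 179.8 (lung), 46.4 and 84.0 (pancreas), and 324 and 244 (SI), highest in SI. Of the 12, 9 had their highest mean in SI, compared with 33.1% of all regions. In SI, 6 of the 12 were called higher than the mean of LI, lung, and pancreas (edgeR, adjusted p below 0.05), beside 10.7% of all regions. Without SI 1 the number was 3. Not all of the 12 were shut in BM: chr2:128294840-128295477, which is intergenic and 127.5 kb from the Gm14010 TSS, held 399.8 and 589 in BM.

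Irf4 encodes a transcription factor of activated lymphocytes, and 11 of its 24 regions met the rule across 107 kb. Their BM counts ranged from 9.70 to 81.5 and those of the other tissues from 30.9 to 454, the last in SI 1 at a region where SI 2 held 96.3. The region with the largest gap there lay 82.3 kb from the Irf4 TSS in intron 24 of Exoc2 (chr13:30831253-30831775) and held 19.4 and 14.9 (BM), 136 and 126 (LI), 135 and 131 (lung), 73.7 and 77.7 (pancreas), and 87.3 and 149 (SI). The other 13 Irf4 regions were all lower in BM on average (median log2 difference 0.77). So were most other regions of Atxn1 (18 of 21), Nek7 (7 of 10), Trib2 (18 of 20), and Trib1 (12 of 12). These genes were named for their many regions closed only in BM, so the counts carry no test. One of the 11 was a promoter region (chr13:30748340-30748846), with 81.5 and 67.9 (BM), 248 and 227 (LI), 163 and 167 (lung), 129.5 and 137 (pancreas), and 260.1 and 189.9 (SI). The other promoter region of Irf4 did not meet the rule but held 85.4 and 89.3 in BM and 119.7 to 538 elsewhere. Irf4 thus differed from Nek7 and Trib2 in having fewer promoter counts in BM than in any other library.

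Atxn1, encoding the transcriptional corepressor ataxin 1, had 12 of 33 regions, all within 98.8 kb. In 8 of these the lung mean was the highest, compared with 25.5% of all regions, and 3 were called higher in lung than in the mean of LI, pancreas, and SI, beside 5.36% of all. The number was 1 without lung 1 or lung 2 and 5 without SI 2. The clearest was chr13:45917225-45917798 in intron 2, which held 23.3 and 22.3 (BM), 96.6 and 80.7 (LI), 392 and 543 (lung), 126 and 137 (pancreas), and 52.8 and 125 (SI) (lung log2 fold change 2.19 ± 0.25 (SE), adjusted p = 4.7e-05, edgeR). The pseudokinase genes Trib1 and Trib2, whose products steer protein degradation, had 8 of 20 and 10 of 30 regions. At Trib2 these lay 109 to 355 kb from the TSS, and 8 of 10 had their highest mean in LI (18.1% of all regions). In LI, 6 of the 10 were called higher (4.03% of all regions), but 1 without LI 1 or pancreas 1, 2 without lung 2, 4 without pancreas 2, and 0 without LI 2 (edgeR), with the log2 fold change above 0 in all 10 each time. The Trib1 region at chr15:59596536-59597070, in intron 7 of Nsmce2, held 40.8 and 29.8 (BM), 459 and 352 (LI), 146 and 195 (lung), 155 and 143 (pancreas), and 148 and 119 (SI), with LI above the others (log2 fold change 1.45 ± 0.21 (SE), adjusted p = 9.0e-04). At Nek7 the leading region, chr1:138542334-138542996 in an intron, held 27.2 and 26.0 (BM), 132 and 203 (LI), 256 and 362 (lung), 111 and 151 (pancreas), and 199 and 193 (SI). In 6 of the 10 Nek7 regions the lung mean was the highest (25.5% of all regions). In lung, 1 of the 10 was called higher (5.36% of all regions) and 2 were called lower (8.57% of all regions, edgeR).

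The sequences of the regions, which the rule did not use, differed from those of other regions. Motifs were counted as exact letter matches on both strands in the central 500 bases, outside promoters, where 2039 of the regions and 40523 of all regions lie. AP-1 matches were found in 975 (47.8%) against 26.6% of all. The NR4A element was found in 198 (9.71%) against 3.30%, a ratio of 2.94, the highest of the 29 motifs searched. NF-kappaB followed AP-1 with 5.30% against 3.25%, and RUNX stood at 26.6% against 19.9%. The nuclear receptor core AGGTCA, which is contained in the NR4A element, was found in 40.8% against 29.9%. Members of these sets overlap: 90 regions held both AP-1 and the NR4A element (4.41% against 1.10%), and 956 (46.9%) held neither (71.2% of all).

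Of the 29 motifs, 18 had a higher and 11 a lower share than in all regions. Smaller excesses were seen for the ROR core TAGGTCA, which overlaps the nuclear receptor core, with 8.09% against 5.60%, for T-box (AGGTGTGA) with 3.29% against 2.36%, for FOX (TGTTTAC) with 9.02% against 7.05%, and for NFAT (TGGAAA) with 41.98% against 34.9%. The GATA motif (AGATAAG) was found in 8.19% against 10.0%, whereas it was found in 29.8% of the regions most open in BM. This lower share did not hold at the largest gaps. GATA was found in 9.59% of the regions at a margin of 1, and in 30 (12.9%) of the 232 with a gap of at least 1.5. The promoter-linked GC box (GGGCGG) stood at 10.6% against 20.99%, and the core of the site of the insulator protein CTCF (AGGGGGC) stood at 4.32% against 11.1%. The IRF element (GAAANNGAA) was found in 16.0% of both. Regions most open in BM had the opposite pattern for 2 motifs, with AP-1 in 17.98% and the NR4A element in 1.47%. Regions closed only in SI had AP-1 in 37.9% and the NR4A element in 2.85%, so that the AP-1 share was raised there as well while the NR4A share was not. In regions closed only in lung the shares were 30.5% and 3.79%.

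**Figure D3:**
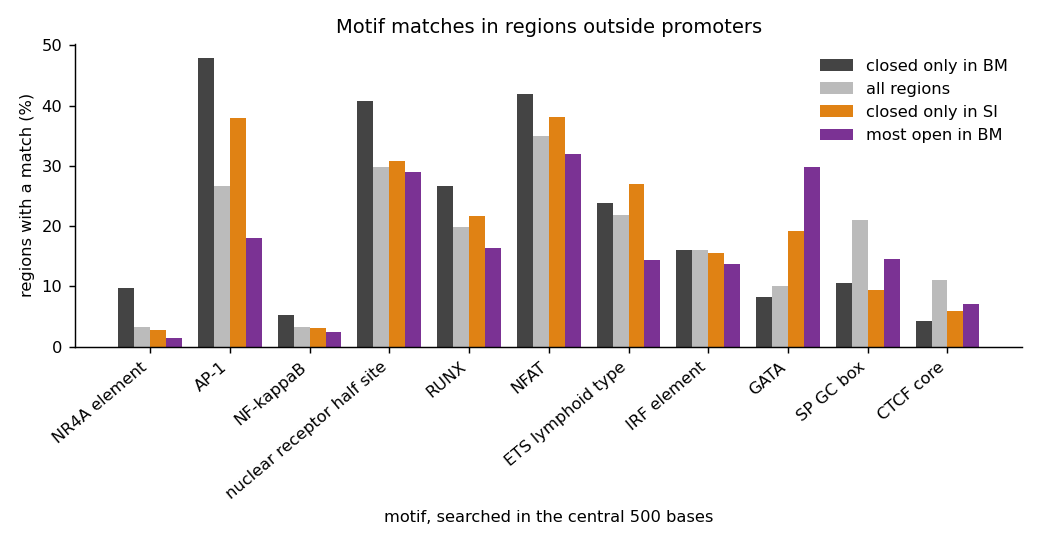
Share (%) of regions outside promoters with a motif match, for 2039 regions closed only in BM, all 40523 regions, and the regions closed only in SI or most open in BM; bars start at 0. NR4A and AP-1 stand out in the regions closed only in BM (9.71% and 47.8%), GATA in those most open in BM (29.8%).

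The shares stood apart in each class of base composition and read depth. In regions under 45% GC, AP-1 was found in 50.6% against 33.4% and the NR4A element in 11.9% against 4.398%. Above 50% GC the values were 42.8% against 19.2% and 6.28% against 2.12%. When the regions were split at the quartiles of their mean count in the 8 libraries, the AP-1 share was 42.7% to 53.9%, against 24.1% to 28.6% of other regions with like counts. The NR4A share was 6.86% in the class with the fewest reads and 12.5% in the class with the most, against 2.58% to 3.39% of other regions. Within the regions, those with the NR4A element had a median log2 difference from BM of 2.04 and those without it 1.81. For AP-1 the values were 1.91 and 1.74. The rule chose regions by their difference from BM, so these medians are a description and carry no test. The part of read depth in them was not tested.

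The matches lay toward the centre. AP-1 matches had their centre within 50 bp of the region's centre in 41.7% of cases in these regions and in 37.7% in all regions. For the NR4A element the share was 36.2% against 23.0%, and 3.63% of the regions against 0.77% of all held it so centrally. GATA matches went the other way, with 23.4% against 30.7%. RUNX matches differed little, at 33.7% against 34.5%. A match is a description of letters and shows no bound factor. As BM alone was isolated without enzymes, the part of isolation in the motif shares was not tested.

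**Figure D4:**
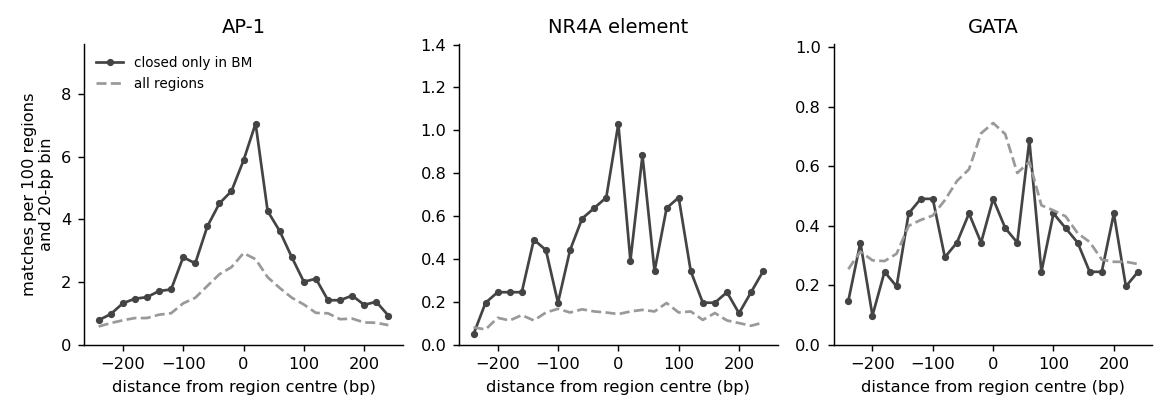
Matches per 100 regions in 20-bp bins against distance (bp) from the region's centre, for regions closed only in BM (solid line, points) and all regions (dashed), outside promoters. AP-1 peaks at the centre in both and higher in the BM regions; the NR4A element is raised around the centre in the BM regions and nearly flat in all regions; the y axes differ.

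Among genes of ILC2 biology, lists of known function were read by the share of their regions that met the rule, beside 4.23% of all regions and 5.03% of those outside promoters. JAK-STAT genes with their feedback and survival targets had the highest share, 20 of 176 regions (11.4%), in 12 of 21 genes. These included Bcl2l11 (4), Stat4 (3), Jak2 (2), and Cish (2), the last a cytokine-induced inhibitor of cytokine signalling. In intron 1 of Stat3, chr11:100933741-100934457 held 46.6 and 40.9 (BM), 279.7 and 421 (LI), 162 and 214 (lung), 183 and 288 (pancreas), and 259 and 550.2 (SI). In intron 2 of Stat4, the region with an NR4A element shown above (chr1:51996982-51997482) held 12.6 and 3.72 (BM), 49.2 and 63.5 (LI), 65.1 and 90.2 (lung), 61.8 and 90.3 (pancreas), and 41.3 and 51.6 (SI). The counts at Stat4 were low in all tissues, and its BM libraries held 13 and 4 raw reads.

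Costimulatory and checkpoint receptors had 14 of 148 regions (9.46%): 5 at the hyaluronan receptor Cd44, 3 at Tigit, 2 at Klrg1, and 1 each at Cd200r1, Havcr2, Cd28, and Cd6. The Cd200r1 region, in intron 1 of this inhibitory receptor (chr16:44774146-44774675), held 32.0 and 15.8 (BM), 159 and 222 (LI), 114 and 197 (lung), 164 and 137 (pancreas), and 120.0 and 141 (SI). Near Tigit, chr16:43694029-43694529 held 44.6 and 57.7 (BM), 261 and 274 (LI), 216 and 320.2 (lung), 296 and 254 (pancreas), and 178 and 311 (SI). In intron 3 of Havcr2, encoding TIM-3, chr11:46461359-46462416 held 67.9 and 65.1 (BM), 476 and 383 (LI), 252 and 426 (lung), 199.7 and 267 (pancreas), and 237 and 278 (SI). None of these 3 regions differed among LI, lung, pancreas, and SI in any single-tissue contrast (adjusted p 0.106 or above, edgeR).

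Transcription factors of the ILC2 lineage had 35 of 391 regions (8.95%) in 11 of 25 genes, led by Irf4 (11) and by Bcl11b, Ets1, and Runx1 (5 each). Gata3 had none, and Rora had 1 of 29. At Bcl11b the 5 regions held 28.8 to 156 in BM and 54.6 to 408 elsewhere. Type 2 cytokines and effectors had 11 of 134 (8.21%), of which 7 were at Il10, a regulatory cytokine that some ILC2s make. Il13 had 1 of 9 regions, and Tnfsf11, encoding RANKL, had 1 of 7.

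All 7 Il10 regions lay within 45.03 kb, with BM counts of 9.70 to 85.4 and 31.5 to 594 elsewhere, and 5 of the 7 held an AP-1 match. The one farthest upstream (chr1:130993579-130994153), whose sequence is shown above, held 33.0 and 38.1 (BM), 164 and 248 (LI), 349.7 and 485 (lung), 105 and 162 (pancreas), and 444 and 339 (SI). It was higher in lung (log2 fold change 0.91 ± 0.22 (SE), adjusted p = 0.0109) and SI (0.80 ± 0.22 (SE), adjusted p = 0.0154) and lower in pancreas (-1.31 ± 0.26 (SE), adjusted p = 0.00456) than in the mean of the other 3 tissues. In intron 4, chr1:131022562-131023092 held 9.70 and 21.4 (BM), 132 and 94.4 (LI), 67.4 and 60.7 (lung), 40.4 and 31.5 (pancreas), and 594 and 184 (SI), highest in SI. The SI libraries differed widely from each other there, and SI 1, the higher, was also the library with the most counts at the Ebf1 and Spi1 promoters. SI had the highest mean at 5 of the 7 (33.1% of all regions) and lung at the other 2 (25.5% of all regions). In SI, 6 of the 7 were called higher than the mean of the other 3 tissues (10.7% of all regions). Without SI 1 the number was 3.

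Immediate early and NR4A factors had 9 of 162 regions (5.56%) and NF-kappaB genes 8 of 163 (4.91%), near the share of all regions. Within them, chr4:48012125-48012648, 32.9 kb from the TSS of the receptor gene Nr4a3, held 12.6 and 16.7 (BM), 124 and 136 (LI), 139 and 91.3 (lung), 134 and 98.7 (pancreas), and 131 and 153 (SI). Near Egr2, a zinc finger factor induced by receptor signals, chr10:67493478-67493989 held 17.5 and 17.7 (BM), 254 and 251.5 (LI), 84.7 and 133 (lung), 133 and 199.5 (pancreas), and 105 and 209.6 (SI). Both regions were far apart from BM, by 3.01 and 3.11 on the log2 scale. Near Tnip3, which restrains NF-kappaB, chr6:65516722-65517449 held 21.3 and 36.3 (BM), 212 and 408 (LI), 184 and 227 (lung), 152 and 132 (pancreas), and 136 and 171 (SI). In intron 1 of Nfkb1, chr3:135670431-135670972 held 108 and 89.3 (BM), 358 and 397 (LI), 215 and 359.6 (lung), 368 and 582 (pancreas), and 273 and 426 (SI).

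Genes of AP-1 factors themselves had few such regions, 3 of 191 (1.57%), a pair at Batf and 1 near Bach2. In intron 2 of Batf, chr12:85703432-85703960 held 183 and 172 (BM), 353 and 524 (LI), 291 and 296 (lung), 446 and 521 (pancreas), and 416 and 585 (SI). Receptors for alarmins and cytokines also had few, 4 of 160 (2.50%). Tnfrsf25, the receptor for TL1A, had 1 of 3 regions (chr4:152120582-152121103), with 297 and 331 (BM), 831 and 1085 (LI), 1149 and 998 (lung), 1219 and 1399 (pancreas), and 632 and 792 (SI). Il1rl1, which encodes the IL-33 receptor subunit ST2 used to sort the ILC2s of every tissue but SI, had none. Homing and adhesion genes had 9 of 209 (4.31%), 3 of them at Itgav, the integrin alpha V subunit. Genes of hypoxia and metabolism had 7 of 135 (5.19%), actin and cell shape genes 5 of 110 (4.55%), glucocorticoid and cAMP response genes 6 of 162 (3.70%), and neural, adrenergic, and lipid receptors 3 of 135 (2.22%). Among the actin genes, intron 1 of the annexin gene Anxa2 (chr9:69458038-69458604) held 49.5 and 42.8 (BM), 353 and 362 (LI), 412 and 456 (lung), 214 and 286 (pancreas), and 153 and 176 (SI). In intron 4 of Vipr2, a receptor for the neuropeptide VIP, chr12:116095399-116095923 held 28.1 and 22.3 (BM), 171 and 209 (LI), 256 and 405 (lung), 47.5 and 96.6 (pancreas), and 104 and 179 (SI), with lung above (log2 fold change 1.41 ± 0.27 (SE), adjusted p = 0.00239, edgeR) and pancreas below (-1.58 ± 0.34 (SE), adjusted p = 0.00725) the mean of the other 3.

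Genes that mark other blood cells had 1 of 37 regions (2.70%), the promoter of Cd3g, part of the T cell receptor complex. It held 26.2 and 27.9 (BM), 45.8 and 75.5 (LI), 112 and 80.3 (lung), 107 and 116 (pancreas), and 78.7 and 55.6 (SI), all low counts. T cells were gated out by CD3 in the sort, and their part in these counts was not tested.

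Nearest genes were also matched to 86 genes listed as lower and 59 listed as higher in BM ILC2s by scRNA-seq. Those lists compared BM with each other tissue, on cells other than those of these libraries. The study describes no separate isolation for them, so BM was flushed and the other tissues digested there too. BM and pancreas cells also formed a batch apart from lung, LI, and SI cells. The part of isolation and batch was not tested. Of the lower genes with a region, 32 of 84 had at least 1 region closed only in BM, against 8.68% of all genes with a region, and 62 of their 680 regions met the rule (9.12%). Of the higher genes, 3 of 54 had one, and 3 of 268 regions met the rule (1.12%). Genes with many regions have more chances to hold one, so the shares of regions are the fairer measure. Chd7, a chromatin remodeller, and Kit, the stem cell factor receptor, each had 5. In intron 2 of Chd7, chr4:8783158-8783710 held 15.5 and 8.37 (BM), 137 and 174 (LI), 184 and 139 (lung), 249.6 and 292 (pancreas), and 92.1 and 90.2 (SI). Near Fam110a, chr2:151961798-151962327 held 29.1 and 46.5 (BM), 653 and 778 (LI), 419 and 344 (lung), 380.3 and 252 (pancreas), and 216 and 299.8 (SI). In intron 1 of Fgl2, which encodes a fibrinogen-like immunoregulatory protein, chr5:21374621-21375160 held 31.1 and 21.4 (BM), 141 and 316 (LI), 253 and 338 (lung), 111 and 130.2 (pancreas), and 221 and 206 (SI).

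Of the promoters that met the rule, the largest gap was at Gm15918 (chr14:63608110-63608895), which also lies in intron 1 of Xkr6 and held 88.3 and 101.4 (BM), 646 and 628 (LI), 1027 and 1326 (lung), 948 and 669.9 (pancreas), and 351 and 488 (SI). Next were Sptssb, which encodes a subunit of the enzyme that starts sphingolipid synthesis, Gm9946, Lpar5, and Klrg1. At Lpar5, a receptor for lysophosphatidic acid, chr6:125067465-125067987 held 57.3 and 61.4 (BM), 266 and 283 (LI), 173 and 198 (lung), 339.9 and 311 (pancreas), and 208 and 245 (SI). At the promoter of Klrg1, an inhibitory receptor of mature ILC2s (chr6:122282615-122283136), the counts were 70.8 and 55.8 (BM), 292 and 409 (LI), 191 and 258 (lung), 452 and 329.7 (pancreas), and 255 and 305 (SI). KLRG1 was part of the gate in SI alone, and its part in the SI counts was not tested.

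How the regions differ among LI, lung, pancreas, and SI was not used to choose them, apart from the floor that each library must clear, and was tested. The test was edgeR's quasi-likelihood test on all 10 libraries with tissue as the factor, over the 49981 regions with a read, at an adjusted p below 0.05. Of the 2118 regions, 854 (40.3%) differed among the 4 tissues, against 27.4% of all regions, and 1264 (59.7%) did not pass. The median range of the 4 tissue means was 0.94 on the log2 scale against 0.72 over all regions. The mean count outside BM had a median of 157 and quartiles of 96.8 and 277, compared with 148, 74.7, and 379.9 over all regions, and the part of depth in the calls was not tested. Any one region had to clear its BM level in all 8 libraries, which keeps out regions shut in 1 of the 4 tissues.

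LI stood out on the higher side. There, 223 regions (10.5%) were higher in LI than in the mean of lung, pancreas, and SI, against 4.03% of all, and 5 were lower (0.236%), against 0.304%. LI had the highest mean of the 4 tissues in 737 regions (34.8%, compared with 18.1% of all regions). Lung was higher in 151 (7.13%, against 5.36%) and lower in 261 (12.3%, against 8.57%). Pancreas was higher in 155 (7.32%, against 6.32%) and lower in 110 (5.19%, against 2.43%). SI was higher in 225 (10.6%), as among all regions (10.7%), and lower in 344 (16.2%, against 11.7%). The counts depended on single libraries, as leaving 1 out leaves its tissue with 1 library, whose spread is then assumed to be that of the others. The number higher in LI was 77 without LI 1 (3.64%, against 1.34% of all regions), 52 without LI 2 (2.46%, against 1.36%), 123 without pancreas 1 (5.81%, against 2.289%), and 359 without SI 2 (16.95%, against 5.89%), so its share was above that of all regions each time. The number lower in LI was 0 without LI 1 (edgeR, 0.06% of all regions), 1 without LI 2 (0.078% of all) or pancreas 1 (0.092%), 2 without lung 2 (0.09%) or pancreas 2 (0.16%), and 11 without SI 1 (0.938%). For lung, the share called higher fell below that of all regions without lung 2, and the share called lower did so without lung 1. Without lung 2, 23 were higher (1.09%, against 1.21%) and 36 lower (1.70%, against 1.05%), and without lung 1, 91 were higher (4.297%, against 2.87%) and 84 lower (3.97%, against 4.62%). Without pancreas 2, 166 were lower in lung (7.84%, against 5.79%). For pancreas, the shares stood near or below those of all regions in 3 of the 4 counts made without pancreas 1 or pancreas 2. The number higher was 57 without pancreas 1 (2.69%, against 2.55%), 38 without pancreas 2 (1.79%, against 1.81%), and 240 without SI 2 (11.3%, against 8.503%). The number lower in pancreas was 9 without pancreas 1 (0.425%, against 0.454%), 27 without pancreas 2 (1.27%, against 0.724%), 70 without LI 2 (3.305%, against 1.65%), and 68 without lung 2 (3.21%, against 1.699%). For SI without SI 1, 147 were higher (6.94%, against 5.95%) and 216 lower (10.2%, against 9.01%).

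**Figure D5:**
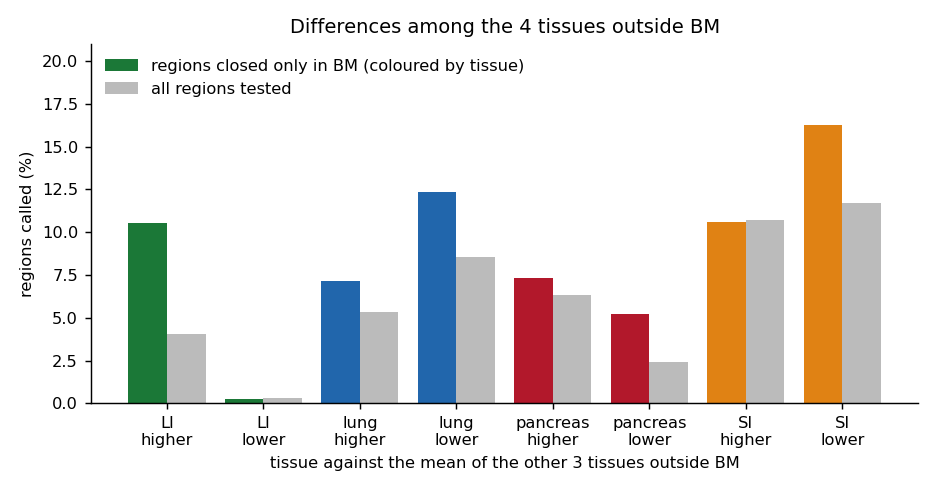
Share (%) of the 2118 regions closed only in BM (coloured) and of all 49981 tested regions (grey) called higher or lower in each tissue than in the mean of the other 3 tissues outside BM (edgeR, adjusted p below 0.05); bars start at 0. LI higher shows the widest separation, 10.5% against 4.03%; SI higher shows none, 10.6% against 10.7%.

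Single regions showed how far this went. Near Klri2, a lectin-like receptor of the NK gene complex, chr6:129747290-129747918 held 57.3 and 27.9 (BM), 537 and 988 (LI), 119 and 82.5 (lung), 85.6 and 113 (pancreas), and 305 and 284 (SI) (LI log2 fold change 2.44 ± 0.24 (SE), adjusted p = 7.4e-05). In intron 1 of Ext1, an enzyme of heparan sulphate synthesis, chr15:53222347-53222857 held 15.5 and 23.3 (BM), 171 and 115 (LI), 346 and 449.8 (lung), 126 and 130.2 (pancreas), and 33.6 and 35.3 (SI) (lung log2 fold change 2.204 ± 0.21 (SE), adjusted p = 1.1e-05). The Ext1 counts in SI were only slightly above BM. Near Sema3e, a guidance molecule gene, chr5:13987058-13987559 held 9.70 and 11.2 (BM), 89.9 and 90.1 (LI), 91.7 and 74.3 (lung), 319 and 256 (pancreas), and 23.0 and 27.8 (SI) (pancreas 2.31 ± 0.22 (SE), adjusted p = 1.2e-05). In an exon of 6530402F18Rik next to Ntng2, chr2:29246856-29247430 held 25.2 and 13.0 (BM), 198 and 248 (LI), 45.5 and 42.1 (lung), 115 and 90.3 (pancreas), and 405 and 541 (SI), so that SI and LI stood above lung and pancreas. All adjusted p-values here are from edgeR over 49981 regions.

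AP-1 matches were also counted by tissue pattern. Outside promoters, they were found in 58.3% of the 218 regions higher in LI, against 53.2% of all 1948 regions higher in LI. The shares were 56.7% of 141 against 31.6% of 2475 for lung, 58.0% of 150 against 40.7% of 3027 for pancreas, and 39.5% of 223 against 24.3% of 4670 for SI. The NR4A element was found in 16.1%, 5.67%, 16.7%, and 8.52% of the regions higher in LI, lung, pancreas, and SI, against 6.98%, 2.67%, 5.29%, and 4.37% of all regions higher in them. Among regions lower in a tissue, AP-1 was found in 51.2% of 258 for lung, 43.1% of 109 for pancreas, and 63.6% of 327 for SI, against 38.8%, 29.6%, and 43.2% of all regions lower there, and in 40.0% of the 5 lower in LI against 14.2%. The NR4A element was found in 23.6% of the 258 regions lower in lung, against 7.32% of all 4060 regions lower in lung, the highest share of the 8 patterns. It was found in 1.83% for pancreas and 9.17% for SI, against 2.91% and 4.21%, and in none of the 5 regions lower in LI. These shares were not tested against each other.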

How the data were processed

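ATAC-seq libraries of ILC2s from 5 tissues, 2 per tissue, were analysed from the raw counts that the authors deposited, whole numbers of reads at 50039 merged peaks of mm10. The authors mapped 150-base paired reads with Bowtie2 2.2.9, kept unique reads, called peaks with MACS2 2.1.1 at a q-value of 0.01 per library, kept those that recurred in the replicate, and counted reads with bedtools; removal of duplicate reads and a shift for the transposase are not given in the sources used here. Libraries were grouped by their labels. Reads without molecular identifiers are not independent, and neither are neighbouring regions, so intervals cover counting error only. Samples are pools of mice, and p-values measure the spread between 2 libraries per tissue.

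The members and the gene lists were chosen with earlier results of these data known. Members were found with median-of-ratios size factors, a pseudocount of 1, and a margin of 0.5. Differences among LI, lung, pancreas, and SI were tested with edgeR 4.0.16 (TMM, glmQLFit, glmQLFTest, R 4.3.3) on all 10 libraries and the 49981 regions with a count, with Benjamini-Hochberg adjustment, for the 4 tissues together and for each against the mean of the other 3. SE is the log2 fold change divided by the root of F. The script recovered known large changes in simulated data of fixed spread. That checks the code and not how well the tests fit the spread between these libraries. Alternatives were DESeq2 1.42.0, other scalings and filters, the fit with a replicate block, and fits with 1 library left out. Coordinates are as the table gives them, and their base is not stated. Classes and nearest genes come from curated RefSeq transcripts of GRCm38, and GENCODE M21 gave 56.6% of members the same gene. Named regions are the 12 with the largest gap, up to 3 per gene list (5 for the scRNA-seq list), those of the 6 genes with the most members, the 3 with the largest log2 fold change called higher in each tissue, 5 promoters, the 3 with the highest counts, and 3 on each side of the threshold; Ostf1, Il10, Morrbid, and 2510009E07Rik as loci, the sequences shown, and the regions picked within a set were chosen after their values were seen. A few items that these rules name are not reported here.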

Additional observations from a re-analysis of the deposited data

How the results depend on the processing

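The number of regions closed only in BM was 1668 to 2743 under other scalings, a pseudocount of 5, thinned counts, or a GC trend removed. With margins of 0.25 and 1 it was 3619 and 730. Of the 2118 regions, 74.9% still met the rule with the GC trend removed and 79.4% with thinned counts. Under other scalings or a pseudocount of 5 the share was 92.3% to 99.3%. Leaving out 1 library gave 2154 to 3604. The promoter share was 5.16% with the GC trend removed, 5.00% with promoters of 1000 bp on either side of a TSS (27.2% of all regions), 7.46% with GENCODE genes (27.2% of all), and 3.48% to 4.75% with a library left out. AP-1 was found in 45.6% to 49.6% and the NR4A element in 8.28% to 11.99% of non-promoter members across settings added after seeing the data.

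At an unadjusted p below 0.05 the numbers higher and lower were 592 and 44 (LI), 268 and 522 (lung), 333 and 323 (pancreas), and 360 higher in SI, which is 27.95% and 2.08%, 12.7% and 24.6%, 15.7% and 15.3%, and 16.997%, against 12.1% and 4.44%, 10.8% and 16.5%, 13.7% and 8.78%, and 17.8% of all regions. With a library left out, the number differing among the 4 tissues was 592 to 1022, and the numbers higher and lower were 52 to 359 and 0 to 11 (LI), 23 to 219 and 36 to 344 (lung), 38 to 240 and 9 to 151 (pancreas), and 147 to 220 and 216 to 369 (SI). DESeq2, other size factors, a filter at 10 counts, and a fit without BM moved no count by over 1.5 times. Replicate numbers pair no samples by the labels, and deviations of same-numbered libraries correlated between -0.23 and 0.20, over 0.1 in 4 of 10 tissue pairs. With a replicate block, 883 members differed among the 4 tissues and 2359 regions met the rule, and no count moved by over 1.5 times. Depth limits regions with few reads in BM: the sum of both BM libraries had a median of 84 reads and a minimum of 6.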
